A study of Mus musculus with 12 samples.

Results

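The regions described here are the ac4C peaks that the authors assigned to coding sequence and that consist of 1 block, so that each lies within 1 exon. They were chosen from the authors' deposited peak table by its class (CDS) and its block count (1), without use of any measured level. The table holds 2815 such peaks among 19049 peaks in all (14.8%), in 1974 genes, which are 22.4% of the 8797 genes with any peak. A further 6809 coding-sequence peaks (35.7% of all peaks) have more than 1 block and so span an exon junction. They are the nearest class and are used for comparison.

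All samples came from ID8, a line of mouse ovarian cancer cells that arose from ovarian surface epithelium in culture. One set was treated with cisplatin, a platinum drug that crosslinks DNA, and the other set was the control. Each of the 3 cisplatin and the 3 control samples gave an ac4C antibody pull-down (IP) and an input fraction of total RNA without ribosomal RNA, which makes 12 libraries. Neither the dose and duration of treatment nor a vehicle for the control is given in the labels. Nothing in the labels says that the 3 samples of a group came from separate cultures, so p-values measure only the spread between these samples, which may be technical.

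N4-acetylcytidine (ac4C) is a cytidine with an acetyl group on the exocyclic amine of the base. In mammals the acetyltransferase NAT10 writes it into ribosomal and transfer RNA, with THUMPD1 as its partner on transfer RNA, and it has also been mapped to messenger RNA. In coding sequence it has been linked to decoding and to the stability of the transcript. A peak of antibody enrichment marks a stretch of RNA fragments, not a single modified base.

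All fold enrichments (IP over input), log2 differences between treatments and log10 adjusted p-values of peaks are the authors' own, from their deposited peak table. Its header does not say which treatment is on top of the difference, so a difference is called positive or negative and not higher or lower in cisplatin. The table gives 1 value per peak over all libraries. Values per library exist here for the 6 input libraries only, as FPKM, fragments scaled by gene length and library depth, of whole genes. Their recovered fragments in listed genes were 24290219, 30159427 and 22201704 in cisplatin libraries and 21583201, 21900044 and 20682920 in control libraries. Fewer cells of a type and less RNA per cell cannot be told apart in such bulk samples.

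The labelled cell type was checked on input RNA. All 12 markers of ovarian surface epithelium and mesothelium were listed, with a summed level of 2962 to 3309 FPKM in cisplatin libraries and 2124 to 2157 FPKM in control libraries. Of 8 leukocyte markers, 2 were listed (Cd68 and Cd14), with sums of 8.14 to 9.97 FPKM in cisplatin and 2.25 to 2.6 FPKM in control libraries. The other leukocyte markers, among them the defining Ptprc and Cd3e, had no entry. Only Tek of 5 endothelial markers was listed, at 2.55 to 2.81 FPKM in cisplatin and 0.723 to 0.931 FPKM in control libraries, and 3 of 5 fibroblast markers summed to 77.5 to 80.7 FPKM in cisplatin and 66.2 to 69.3 FPKM in control libraries. All 3 of these other lists were higher in cisplatin libraries, and their part in the results below was not tested.

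The sequences of 4 peaks are shown, because their stretches lie wholly inside RefSeq promoter windows of neighbouring or antisense genes on GRCm38.p6, the assembly behind the mm10 coordinates of the files. A member in Rsl1d1 also does, and is not printed. The 4 are examples set by their place and not chosen as typical members, 2 with a called difference and 2 without. Both called differences are negative, where 77.7% of called members were positive. Each of the 4 sequences is written along the strand of its host gene. Capitals mark bases inside a match of CNNCNNCNN, that is, C at each of 3 positions spaced 3 bases apart, the kind of repeat described around ac4C sites in human messenger RNA. Zmiz1 encodes a coactivator of SMAD and androgen receptor transcription, and its peak lies at chr14:25661341-25661491 on the plus strand.
Zmiz1: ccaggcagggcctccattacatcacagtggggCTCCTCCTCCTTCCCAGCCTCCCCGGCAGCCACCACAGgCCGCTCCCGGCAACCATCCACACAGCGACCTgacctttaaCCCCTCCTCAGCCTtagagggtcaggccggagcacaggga
Ndufaf4 encodes an assembly factor of respiratory complex I, and its peak lies at chr4:24898143-24898291 on the plus strand. The last 125 bases are shown, from the first ATG with a reading frame without a stop up to the end of the peak.
Ndufaf4: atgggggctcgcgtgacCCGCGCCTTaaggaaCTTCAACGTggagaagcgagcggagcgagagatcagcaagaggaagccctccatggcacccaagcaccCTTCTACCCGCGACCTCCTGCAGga
Fst encodes follistatin, a secreted antagonist of activins, and its peak lies at chr13:114456405-114456524 on the minus strand.
Fst: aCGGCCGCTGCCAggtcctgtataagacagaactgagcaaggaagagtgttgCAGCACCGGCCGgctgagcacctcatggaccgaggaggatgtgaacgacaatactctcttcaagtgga
Mef2c encodes a MADS-box transcription factor of muscle and neurons, and its peak lies at chr13:83662402-83662552 on the plus strand.
Mef2c: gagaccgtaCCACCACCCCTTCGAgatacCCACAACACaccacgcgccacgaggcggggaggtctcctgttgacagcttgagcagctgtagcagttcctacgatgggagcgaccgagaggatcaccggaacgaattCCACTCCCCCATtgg

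The Zmiz1 stretch held the most C (42.4%) of the 4 and 17 overlapping matches of the repeat on its own strand, with 1 match on the opposite strand. Over the whole of its peak Ndufaf4 held 28.9% C with 6 matches on its strand and 3 on the other. Fst held 25.0% C with 4 matches on each strand. Mef2c held 33.8% C with 7 matches on its strand and 6 on the other. The repeat is common: at least 1 match stood in 78.7% of 32851 RefSeq promoter windows cut to 151 bases and in 71.4% of those cut to 120 bases. In windows of 151 bases the median was 2 matches and the 90th percentile 9, so Zmiz1 lay above that percentile and Mef2c below it. Those windows are promoter sequence and not coding exons, and their median C content was 25.2%. The counts are thus not matched for C content, and its part in them was not tested. A match is a description of the letters and not a site.

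The log2 difference was -4.11 for the Zmiz1 peak (log10 adjusted p -3.61) and -2.82 for the Ndufaf4 peak (log10 adjusted p -4.81) in the authors' deposited table, and both were called. It was 1.95 for Fst and -2.32 for Mef2c, with log10 adjusted p-values of -0.585 and -0.393, and neither was called. Fold enrichments were 4.2 for Zmiz1, 3.9 for Ndufaf4, 3.85 for Fst and 9.11 for Mef2c. Zmiz1 RNA in input was 5.46, 5.8 and 5.52 FPKM in cisplatin and 16.7, 17.2 and 16.9 FPKM in control libraries, and Fst RNA was 18.2, 17.8 and 16.3 FPKM in cisplatin and 5.76, 4.85 and 5.85 FPKM in control libraries. Neither gene's groups overlapped, and the 2 genes moved in opposite directions, by -1.44 (SE 0.0419, adjusted p = 1.85e-07) for Zmiz1 and 1.51 (SE 0.0749, adjusted p = 1.49e-06) for Fst on the log2(FPKM + 1) scale. Ndufaf4 RNA was 6.3, 6.27 and 6.75 FPKM in cisplatin and 4.3, 4.49 and 4.43 FPKM in control libraries. It rose by 0.46 (SE 0.0515, adjusted p = 9.78e-05) beside its negative peak difference. Mef2c RNA stayed under the filter of the test, with 0.409, 0.369 and 0.338 FPKM in cisplatin and 0.161, 0.103 and 0.129 FPKM in control libraries.

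The width of the peaks within 1 exon ran over 107 to 1677 bases, with a median of 181 and quartiles of 151 and 240.0. The median exonic width was also 181 bases over all peaks and in 3′UTR peaks. It was 210.0 bases in peaks that span a junction. Widths came in steps: 2682 members (95.3%) lay within 1 base of a multiple of 30. Of the members, 466 (16.6%) were 120 or 121 bases wide, 547 (19.4%) were 150 or 151 and 634 (22.5%) were 180 or 181. Only 80 (2.84%) were wider than 500 bases. Junction-spanning peaks of 2 blocks had the same median of 181 bases, and those of 3 or more blocks had 270.0.

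Most members lay towards the 3′ end of their gene. Positions were taken as the peak's centre in percent of the RefSeq gene span from its 5′ end, introns included, for the 2743 members inside a matched span. The median was 71.8% with quartiles of 42.9% and 88.4%. With the span cut into 3 equal parts, the part at the 3′ end held 55.9% of members, the middle part 26.2% and the part at the 5′ end 17.9%. Peaks that span a junction had a median of 66.8% and 50.2% of them in the part at the 3′ end. Peaks that the authors placed in the 3′UTR had a median of 95.7%, and those in the 5′UTR one of 11.0%. The median span of the gene was 29.5 kb for members and 32.4 kb for junction-spanning peaks. These classes were not tested against each other, since the table holds no value per library and peaks of a gene share their source.

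**Figure D1:**
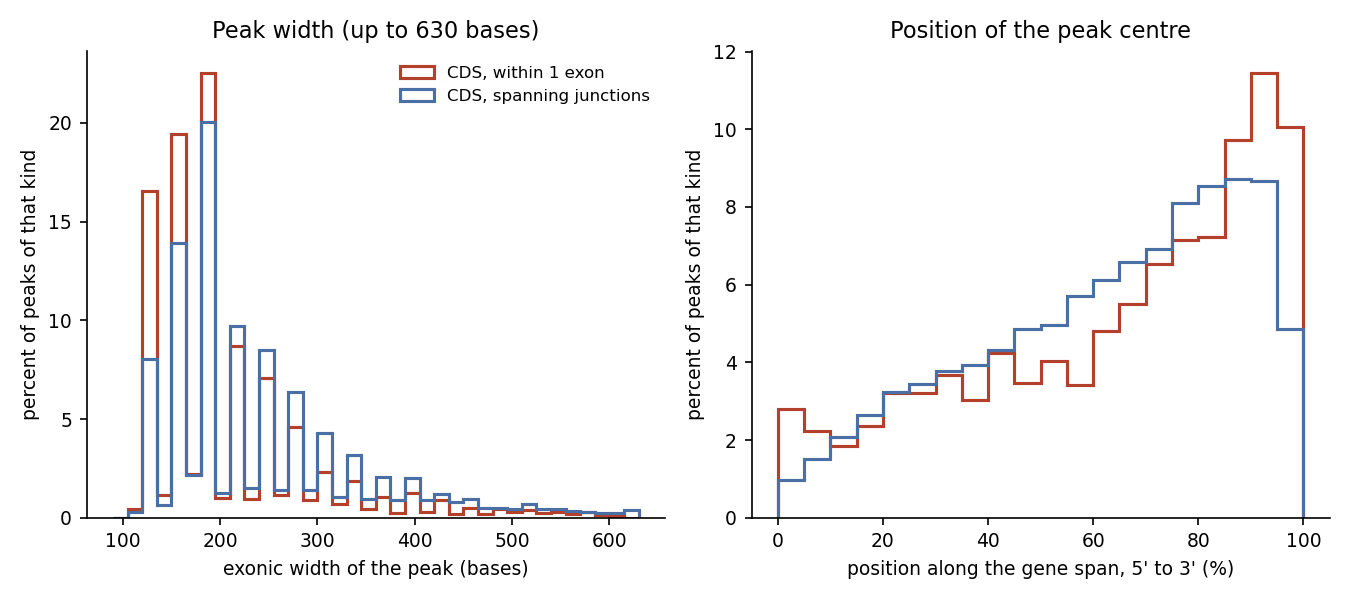
Exonic width in bases (left, the few widest peaks not drawn) and position in percent of the host gene's span (right) of coding-sequence peaks within 1 exon and of those that span a junction, as percent of each class. Members had a median width of 181 against 210.0 bases, and a median position of 71.8% against 66.8%.

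Of the host genes, 1468 (74.4%) held 1 member, 326 held 2, 100 held 3 and 80 held 4 or more. The 5 genes with most members are described here. Ahnak, a giant scaffold protein of the cell cortex, held the most with 13, between 9003374 and 9017932 of chromosome 19. The histone H3K4 methyltransferase gene Kmt2d held 10, the splicing scaffold gene Srrm2 held 9, and the genes of desmoplakin (Dsp) and of the protocadherin Fat1 held 8 each. Besides their members, 940 host genes (47.6% of hosts, 22.9% of the 4101 genes with a junction-spanning peak) also held a junction-spanning coding peak. A 3′UTR peak was found in 760 hosts (38.5% of hosts, 21.1% of 3606 genes) and a 5′UTR peak in 85 (4.31% of hosts, 20.7% of 410 genes). In 654 hosts (33.1%) every peak was a member.

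Members lay on all autosomes, the X chromosome and the mitochondrial genome, with the most on chromosomes 7 (226), 2 (221) and 11 (216). The mitochondrial genome, whose protein genes have no introns, held 21 members among 23 peaks. Of these 21, 15 (71.4%) were called, 6 with a positive and 9 with a negative difference. Of all members 46.7% were called, and 77.7% of those calls were positive. Of all members, 2805 were in protein-coding genes and 10 in genes of another biotype. A group of 80 members overlapped another member on the same strand, 18 of them a member of the same gene (as in Ahnak2 and Rbm15b) and the other 62 only members of other genes, as at Akap2 and the overlapping gene record Pakap on chromosome 4. There the Akap2 peak at 57855720 to 57856587 and the Pakap peak at 57855762 to 57856302 had log2 differences of 3.57 and 3.68. Overlapping members cover the same bases and are not separate observations.

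The fold enrichment of IP over input had a median of 6.04 over the members, with quartiles of 3.29 and 11.1 and a range of 1.06 to 174. The medians were 5.37 for junction-spanning coding peaks, 8.23 for 3′UTR peaks and 7.05 for all peaks. A fold of at least 20 was reached by 241 members (8.56%), and 209 (7.42%) stayed under 2. The 5 highest were in Prg4 (174), Pprc1 (123), Nucks1 (119), Trib1 (107) and Polr1b (103). Prg4 encodes lubricin, a mucin-like lubricant of joints and serous surfaces with a long repetitive central exon, and its peak at chromosome 1, 150454508 to 150456184, was also the widest member. The next widest were in Mki67 (1139 bases), which marks cycling cells, and in the beta-tubulin gene Tubb6 (1043 bases).

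Prg4 input RNA was 11.2, 11.1 and 11.3 FPKM in cisplatin libraries and 19.6, 18.2 and 18.7 FPKM in control libraries. The groups did not overlap, and the gene fell by 0.70 on the log2 scale (SE 0.0403, adjusted p = 2.84e-06), beside a negative peak difference of -2.50. Prg4 had 2 called members, 1 negative and 1 positive. Pprc1, a coactivator of mitochondrial biogenesis, had 28.0, 27.9 and 25.0 FPKM in cisplatin and 17.4, 16.9 and 17.4 FPKM in control libraries, beside a positive peak difference of 3.51. Of its 3 called members 2 were positive and 1 negative. Trib1, a pseudokinase that brings substrates to a ubiquitin ligase, had 16.5, 16.4 and 16.3 FPKM in cisplatin and 9.63, 9.8 and 9.69 FPKM in control libraries, beside a difference of 2.79. Both genes were higher in every cisplatin library than in any control library. Polr1b, the second-largest subunit of RNA polymerase I, averaged 9.41 ± 0.648 FPKM in cisplatin and 7.14 ± 0.299 FPKM in control libraries (SD, n = 3 each), beside a negative difference of -1.46. Nucks1, a chromatin-associated phosphoprotein, averaged 57.1 ± 5.9 FPKM in cisplatin and 50.9 ± 0.933 FPKM in control libraries, which did not pass the test (adjusted p = 0.0678, and 0.00677 without cisplatin replicate 2).

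At the authors' adjusted p of 0.05, 1316 members (46.7%) had a called difference between treatments, where 46.2% of all peaks were called. The positive calls numbered 1023 (36.3%, against 36.5% of all peaks) and the negative calls 293 (10.4%, against 9.62% of all peaks). The members' shares thus lay near those of all peaks. Of the called members, 77.7% were positive, and of all called peaks 79.2%. Junction-spanning coding peaks were called in 59.8% of cases, 82.5% of them positive, and 3′UTR peaks in 36.2%, 75.6% of them positive. The called share was 52.0% in junction-spanning peaks of 2 blocks and 68.7% in those of 3 or more. Without regard to the test, 2116 members had a positive difference, 661 a negative one and 38 a difference of 0.

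Called members had differences of a median 3.73 where positive and -2.84 where negative on the log2 scale, and 1220 of the 1316 differed by at least 1. Their median fold enrichment was 4.23 for positive and 4.2 for negative calls, and 8.23 for members without a call. Their median width was 210.0 for positive and 181 for negative calls, and 177 for members without a call. Median positions lay close together, at 71.2% of the span for positive calls, 71.6% for negative calls and 72.6% without a call. The lowest log10 adjusted p of the deposited table, -434, was shared by 4 members, among them those in Hsp90ab1 and Actb, so they have no order among themselves.

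**Figure D2:**
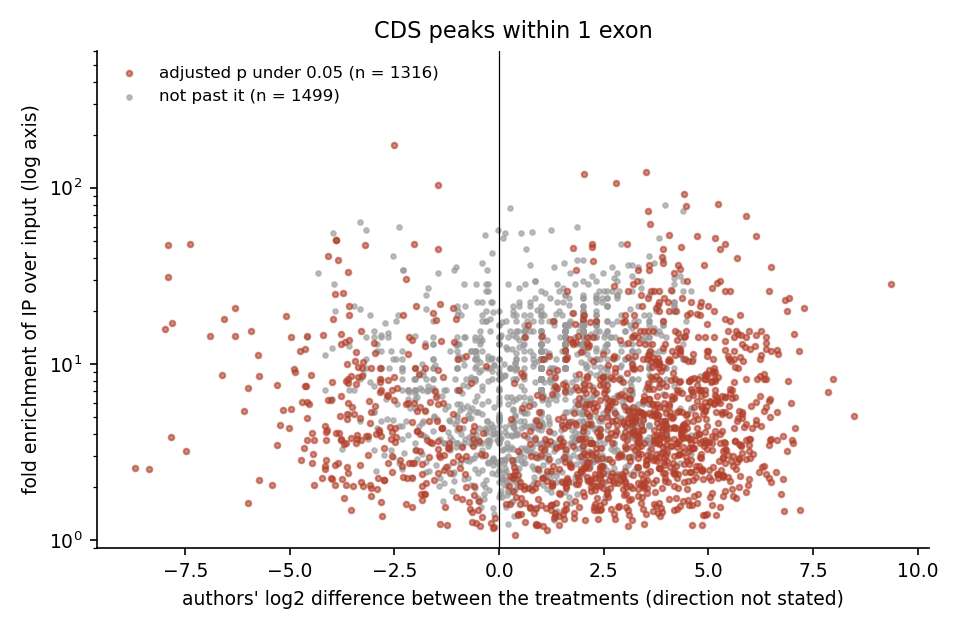
Log2 difference between treatments (horizontal, direction not stated in the file) against fold enrichment of IP over input (vertical, log scale) for the 2815 members, by call at the authors' adjusted p of 0.05. The 1023 positive and 293 negative calls had median folds of 4.23 and 4.2, and members without a call sat higher, at 8.23.

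The share of members with a call moved with the input level of the host gene. Members were divided at the quartiles of their host gene's mean FPKM over the 6 input libraries, 4.6, 10.1 and 23.2. From the lowest to the highest of these 4 bins the called share was 20.7%, 40.3%, 52.6% and 75.9%. Junction-spanning coding peaks cut at the same levels gave 26.7%, 47.3%, 63.7% and 80.4%. Cut at the quartiles of width, the members' share was 28.8%, 36.1%, 52.6% and 69.5% from narrow to wide, and cut at those of fold enrichment it was 67.8%, 53.3%, 34.3% and 31.7% from low to high. Over the 2735 members with a host level, Spearman's rho with that level was -0.36 for fold enrichment, 0.18 for width and 0.10 for the log2 difference, where members of 1 gene share the level. The part of the host level in the calls was not tested.

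**Figure D3:**
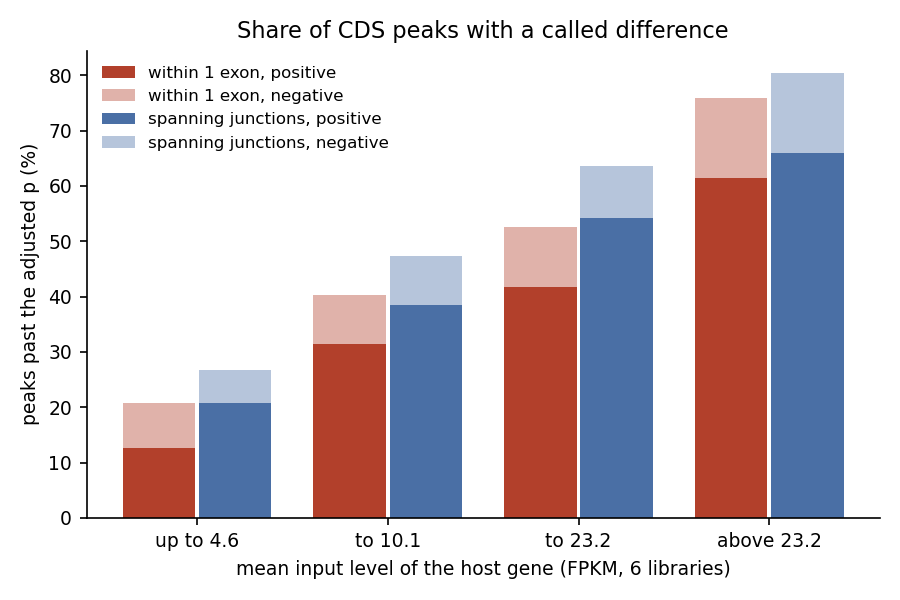
Percent of peaks with a called difference (full bar, divided into positive and negative calls) in 4 bins cut at the quartiles of the host gene's mean input FPKM, for coding-sequence peaks within 1 exon and for those that span a junction. The share of members ran from 20.7% in the lowest bin to 75.9% in the highest, below junction-spanning peaks in all 4 bins.

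The largest positive differences among called members were in Ddx20, Hhex, Ociad1, Brpf1 and Adgra3. Ddx20 encodes an RNA helicase of the SMN complex, which assembles spliceosomal ribonucleoproteins. Its peak (chromosome 3, 105678449 to 105678985, minus strand) was 537 bases wide with a fold of 28.2, a log2 difference of 9.37 and a log10 adjusted p of -70.6 in the deposited table. Ddx20 input RNA was 5.93, 5.16 and 5.74 FPKM in cisplatin and 6.71, 7.19 and 6.67 FPKM in control libraries. It was lower in every cisplatin library, with a log2 change of -0.25 (SE 0.0622, adjusted p = 0.00694), far smaller than the difference of its peak.

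The peak of Hhex, a homeobox transcription factor gene, had a difference of 8.47 at chromosome 19, 37439653 to 37439922. Its host RNA was low, with 2.72, 1.76 and 1.7 FPKM in cisplatin and 3.72, 3.19 and 2.36 FPKM in control libraries, and the groups overlapped. The log2 change of -0.42 had an adjusted p of 0.0468, which was 0.113 without cisplatin replicate 2, 0.134 without cisplatin replicate 3, 0.147 without control replicate 1 and 0.114 without control replicate 2. Ociad1, an integral protein of endosomes and mitochondria, had a difference of 7.98 beside 13.9 ± 0.634 FPKM in cisplatin and 12.6 ± 0.474 FPKM in control libraries, a small change (log2 0.13, adjusted p = 0.037) that a rescaling of the libraries to equal sums ended (log2 0.04, adjusted p = 0.467). It was also lost without cisplatin replicate 1 or 3 or control replicate 2 or 3 (adjusted p 0.0545 to 0.129). Brpf1, the scaffold of a histone acetyltransferase complex, had a difference of 7.85 beside 15.0 ± 0.916 FPKM in cisplatin and 12.4 ± 0.147 FPKM in control libraries. Adgra3, an adhesion G protein-coupled receptor, had a difference of 7.28 at a fold of 20.7. Its input RNA was 3.01, 2.62 and 2.72 FPKM in cisplatin and 8.19, 7.96 and 8.3 FPKM in control libraries, a clear separation with a log2 change of -1.27 (SE 0.0576, adjusted p = 9.89e-07).

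Taken in the same way, the largest negative differences were in Dnmbp, Adam15, Ptpn13, Mdc1 and Zc3h3. Dnmbp encodes Tuba, an exchange factor for the small GTPase Cdc42, and its peak (chromosome 19, 43901594 to 43901744) had a difference of -8.70 at a fold of 2.57. Its input RNA was 9.13, 8.84 and 8.75 FPKM in cisplatin and 6.62, 6.52 and 6.15 FPKM in control libraries. Adam15, a membrane disintegrin metalloprotease, had a difference of -8.37 beside 6.9, 8.67 and 6.8 FPKM in cisplatin and 2.31, 2.03 and 2.32 FPKM in control libraries. Neither gene's groups overlapped, and both rose in cisplatin, by 0.42 (SE 0.0474, adjusted p = 0.000109) and 1.39 (SE 0.0951, adjusted p = 6.81e-06) on the log2 scale.

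Ptpn13, a large non-receptor tyrosine phosphatase, went the other way in input RNA. It had 2.07, 1.85 and 1.96 FPKM in cisplatin and 7.06, 6.92 and 7.57 FPKM in control libraries, a log2 change of -1.47 (SE 0.0596, adjusted p = 6.45e-07), beside a peak difference of -7.90 at a fold of 31.3. Mdc1, the adaptor that binds phosphorylated histone H2AX at DNA breaks, had a difference of -7.85 beside 40.4, 40.7 and 39.0 FPKM in cisplatin and 24.9, 25.6 and 25.4 FPKM in control libraries (log2 0.64, SE 0.0325, adjusted p = 1.62e-06). Zc3h3, a zinc finger protein of messenger RNA export, had a difference of -7.81 near the 5′ end of its gene, at 5.14% of the span. Its input RNA was 5.13, 4.96 and 3.99 FPKM in cisplatin and 3.54, 2.83 and 2.91 FPKM in control libraries, without overlap. The 10 peaks named for their difference thus lay in genes whose input RNA was higher in cisplatin and in genes where it was lower, on both sides.

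**Figure D4:**
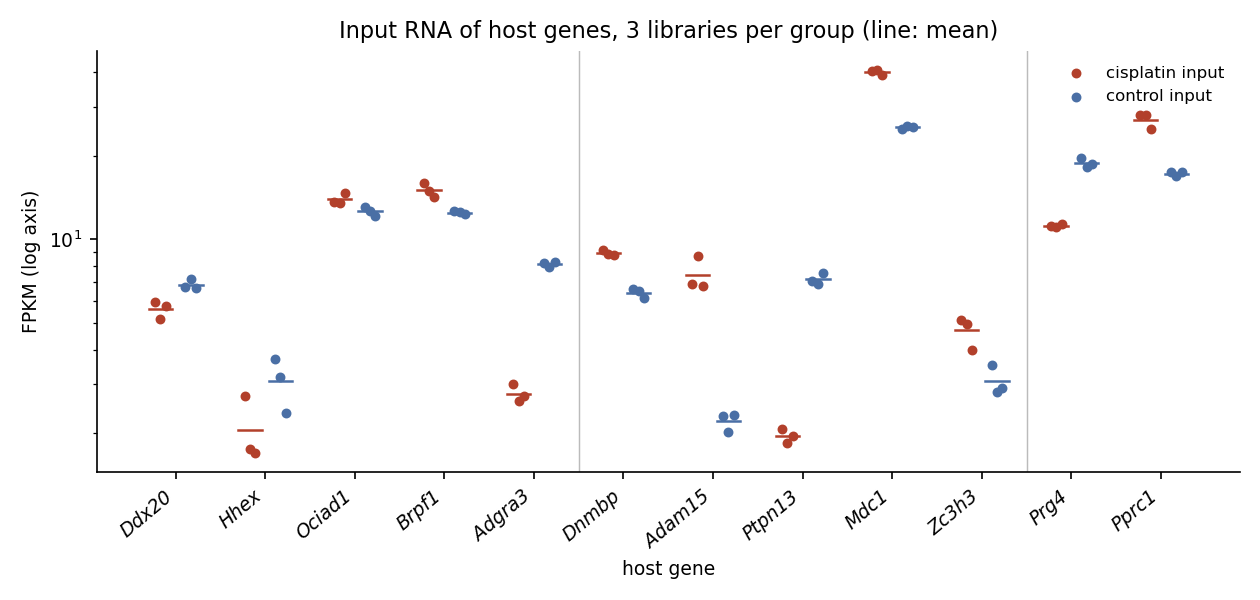
Input level (FPKM, log axis) of 12 host genes in 3 cisplatin and 3 control libraries, each point a library and each line a group mean. From left to right stand the hosts of the 5 largest positive differences named in the text, of the 5 largest negative ones, and of the 2 highest fold enrichments. Adgra3 and Ptpn13 were lower and Adam15 and Mdc1 higher in all 3 cisplatin libraries, and the groups overlapped in Hhex.

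Several members of 1 gene did not always share a sign. Of 219 genes with more than 1 called member, 135 had positive calls alone, 10 negative calls alone and 74 (33.8%) both. All 13 Ahnak members were called, 11 positive and 2 negative, with folds of 1.2 to 5.18 and differences of -1.09 to 3.54 (median 1.06). Ahnak input RNA was abundant, with 625, 624 and 661 FPKM in cisplatin and 418, 419 and 413 FPKM in control libraries (log2 0.61, SE 0.0352, adjusted p = 2.92e-06). In Kmt2d only 2 of 10 members were called, both positive, although folds reached 32.9, and its input RNA was 25.5 ± 1.71 FPKM in cisplatin and 21.1 ± 0.521 FPKM in control libraries. Srrm2 had 7 positive calls among 9 members. Dsp had 3 positive calls among 8 members, and Fat1 had 2 positive calls and 1 negative.

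Both signs also met in Plec, which encodes the cytolinker plectin (5 positive and 1 negative), and in Cenpf, the gene of a kinetochore-associated protein (4 positive and 1 negative). The zinc finger homeobox gene Zfhx3 had 1 positive and 3 negative calls. Since input RNA is given per gene, such neighbours share 1 host level, and their opposite signs are differences between stretches of the same gene.

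Of the 1974 host genes, 1911 (96.8%) had an entry in the input table, and 1824 passed the filter of at least 1 FPKM in 3 or more libraries. The median host level was 8.69, 8.5 and 8.44 FPKM in cisplatin libraries and 8.45, 8.45 and 8.44 FPKM in control libraries. Host genes were expressed above the listed genes as a whole, whose median of group means was 3.69 FPKM in cisplatin and 3.89 FPKM in control, and below genes with a junction-spanning peak, at 12.2 FPKM in cisplatin and 11.6 FPKM in control. This order was not tested.

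In input RNA, 1463 of the 1824 tested host genes (80.2%) differed between cisplatin and control by limma at an adjusted p of 0.05, where 81.3% of all 11449 tested genes did. The host genes higher in cisplatin numbered 777 (42.6%, against 40.1% of all tested genes) and the lower ones 686 (37.6%, against 41.1% of all tested genes). At this threshold the shares lay near those of all genes, and with libraries scaled to equal sums 685 hosts were higher and 801 lower. Most changes were small. The median log2 change was 0.04 with quartiles of -0.38 and 0.44, the median standard error was 0.056, and a change of at least 2-fold was reached by 141 higher (7.73%) and 125 lower (6.85%) host genes, together 14.6%. Of all tested genes 23.9% changed that much, 10.8% higher and 13.1% lower in cisplatin, and of genes with any peak 15.7%. The hosts' share thus lay below that of all tested genes and near that of genes with any peak, and these shares were not tested against each other.

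Host genes with a positive called member, 778 in the table, had a median of 15.7 FPKM in cisplatin and 15.2 FPKM in control libraries. Of the 774 tested, 346 (44.7%) were higher and 275 (35.5%) lower in cisplatin, against 40.1% and 41.1% of all tested genes. The 270 hosts with a negative called member had medians of 13.1 FPKM in cisplatin and 13.5 FPKM in control. Of 264 tested, 105 (39.8%) were higher and 105 (39.8%) lower. The positive and negative sets overlap, since 74 genes had calls of both signs. The 936 hosts without a called member were less expressed, with medians of 5.1 FPKM in cisplatin and 4.91 FPKM in control. Of 858 tested, 354 (41.3%) were higher and 333 (38.8%) lower. The shares were not tested against each other, and the order of higher and lower hosts depends on the scaling. The peak difference and the input change rest on the same input libraries and are given side by side only.

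Members in gene lists are given next, where 46.7% of all members were called and 77.7% of those were positive, and where 40.1% of all tested genes were higher and 41.1% lower in cisplatin input RNA. Nat10, the gene of the enzyme that writes ac4C, held no member. Among 38 ac4C and other RNA modification factors, 12 genes held 18 members, of which 12 were called, all positive, with 2 of these in overlapping stretches of Rbm15b. They include readers of N6-methyladenosine, with log2 differences of 6.98 in Ythdf1, 4.17 and 4.92 in Ythdf2 and 6.94 in Ythdf3. The NAT10 partner gene Thumpd1 had 1 called member, at 5.61, and 1 uncalled at 0.22. Thumpd1 input RNA was 45.2, 42.7 and 50.1 FPKM in cisplatin and 38.5, 39.6 and 39.9 FPKM in control libraries, a change of 0.22 (SE 0.0583, adjusted p = 0.00982) that the same rescaling ended (0.12, adjusted p = 0.0795). In input RNA 10 of the 12 host genes were higher and 1 was lower, and over the whole list 24 of 35 tested genes were higher and 6 lower. Ythdf1 was the lower one, with 9.4 ± 0.0374 FPKM in cisplatin and 10.6 ± 0.138 FPKM in control libraries.

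Members in genes of DNA replication and translation initiation were nearly all called, against 46.7% of all members. In the DNA replication list 10 genes held 11 members, 10 of them called and all of those positive, with a median difference of 3.46 where that of all members was 1.58. The sliding clamp gene Pcna held 2, at 3.46 and 3.20, and Mcm10, the gene of a replication initiation factor, and Mcm5, that of a subunit of the replicative helicase, had 5.60 and 4.53. Mcm10 input RNA was 13.4, 12.9 and 12.5 FPKM in cisplatin and 9.08, 9.67 and 8.59 FPKM in control libraries. Fen1, the flap endonuclease of Okazaki fragments, had a difference of 4.55 beside 79.3, 83.0 and 70.1 FPKM in cisplatin and 42.8, 45.6 and 43.7 FPKM in control libraries. Among the 10 hosts of that list 7 were higher and 2 lower in cisplatin, and over the whole list 38 of 48 tested genes were higher and 6 lower. All 10 members in 7 translation factor genes were called, 9 of them positive, with 4.87 and 3.23 in Eif5, 3.60 and 3.74 in Eif4g1 and the negative one, -2.55, in Eif3h. The share of calls among all members moved with the host level, as described above, and the part of that level in these counts was not tested.

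In genes of ribosome assembly, 6 hosts held 8 members, 6 of them called and positive. Bms1, a GTPase of the small subunit processome, had 3.62 for its called member, beside 88.8, 85.0 and 88.0 FPKM in cisplatin and 44.9, 44.4 and 43.5 FPKM in control input. Rrs1, which brings 5S RNA into the large subunit, had a peak difference of 4.02 beside 50.7, 52.0 and 49.8 FPKM in cisplatin and 24.5, 26.0 and 24.3 FPKM in control. Both were higher in every cisplatin library, as were 5 of the 6 hosts by the test and 39 of the 42 tested genes of the list. The cytosolic ribosomal protein genes held few members, 5 in 5 of 75 genes, with 2 positive calls (Rpsa and Rpl29) and 2 negative calls, among them Rpl18. Reads of these genes can be shared with their many processed pseudogenes, so their values are uncertain.

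The DNA repair list had 27 members in 14 genes, 10 called positive and 2 called negative. Bard1, the partner of BRCA1, had 4.91, and Brca1 itself 3.21 and 2.52. The mismatch repair gene Msh6 held both signs, with 4.54 and -1.78, and one more member at 0.80 without a call, beside 51.6, 52.9 and 54.4 FPKM in cisplatin and 39.8, 38.9 and 38.9 FPKM in control input. Mdc1 was the second gene with a negative call. Among the hosts 4 were higher and 4 lower in cisplatin, and over the whole list 22 of 46 tested genes were higher and 16 lower. Of 24 members in 13 mitosis genes, 12 were called positive and 4 negative, with 6.47 in the checkpoint kinase gene Bub1b, 6.04 in the kinetochore motor gene Cenpe and 6.29 for the highest in Cenpf.

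Targets of p53, the transcription factor that cisplatin damage activates, held 8 members in 8 of 36 genes, and 2 were called. Mdm2, the ubiquitin ligase that degrades p53, had a member of 480 bases with a difference of 3.80. Its input RNA was 135, 147 and 139 FPKM in cisplatin and 27.9, 28.3 and 29.4 FPKM in control libraries, a log2 change of 2.25 (SE 0.0408, adjusted p = 5.57e-08). Perp, a tetraspan membrane protein of desmosomes, had a negative difference of -0.88 beside 129, 117 and 135 FPKM in cisplatin and 49.4, 50.0 and 50.2 FPKM in control libraries. Both genes were thus far higher in every cisplatin library, while their members had calls of opposite sign. By the test 7 of 8 hosts were higher in cisplatin and none was lower, and over the whole list 29 of 36 tested genes were higher and 4 lower.

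The AP-1 and immediate early list gave 5 positive and 3 negative calls among 12 members in 11 genes. Klf10, a TGF-beta inducible zinc finger gene, had 6.67 and 4.48, and Jun, whose coding sequence lies in 1 exon, had 2.40. Jun input RNA was 239, 239 and 255 FPKM in cisplatin and 53.2, 56.9 and 54.0 FPKM in control libraries. The negative calls were Egr1 (-4.17), Myc (-3.48) and Fos (-2.97). Myc RNA was 160.4, 185 and 154 FPKM in cisplatin and 35.6, 36.8 and 34.8 FPKM in control, whereas Fos RNA was 9.85, 8.55 and 8.44 FPKM in cisplatin and 28.6, 30.9 and 29.0 FPKM in control. Negative calls therefore stood in a gene that rose in cisplatin and in genes that fell, Egr1 also falling, with 3.29, 3.45 and 3.58 FPKM in cisplatin and 9.75, 9.34 and 8.92 FPKM in control.

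The TGF-beta family list of 41 genes holds ligands, receptors and Smads, and also Id2, Id3 and Ltbp1. In it 8 genes held 1 member each, and 2 were called. They were the receptor-regulated Smad2 (4.08) and the common partner Smad4 (4.58). Smad4 RNA was 12.4, 13.1 and 12.5 FPKM in cisplatin and 14.7, 15.8 and 14.9 FPKM in control, a fall of -0.24 (SE 0.0438, adjusted p = 0.00154). Smad2 RNA averaged 7.37 ± 0.331 FPKM in cisplatin and 7.99 ± 0.531 FPKM in control libraries and did not pass the test (adjusted p = 0.155), but did once libraries were scaled to equal sums (log2 -0.19, adjusted p = 0.0183). The type I receptor gene Tgfbr1 and the ligand gene Bmp4 had members at 1.58 and 1.96 without a call. By the test 6 of the 8 hosts were higher in cisplatin and 1, Smad4, was lower. Over the whole list 14 of 34 tested genes were higher and 17 lower.

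The chromatin list had 83 members in 31 genes, the most after the 104 members in 21 genes with a very long coding exon. In it 25 were called positive and 8 negative, with 6.63 in the methyltransferase gene Kmt2b, 6.38 in the acetyltransferase gene Kat6a and 5.75 in Crebbp. In subunits of the SWI/SNF remodeler the signs parted: both called members of Arid1a had 5.67, that of Arid1b had -5.74, and Arid2 had 4.12 and -4.60. Kat6a RNA was 35.0, 35.0 and 33.4 FPKM in cisplatin and 38.9, 38.8 and 38.8 FPKM in control libraries. Of the 30 tested hosts 9 were higher and 15 lower in cisplatin, and over the whole list 16 of 49 tested genes were higher and 22 lower. In the long exon list 61 were called positive and 12 negative, with 5.20 in the intermediate filament gene Nes and 5.27 in the cytolinker gene Macf1. Nes RNA was 24.9, 23.1 and 24.7 FPKM in cisplatin and 11.9, 12.1 and 13.1 FPKM in control libraries.

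Replication-dependent histone genes are made of 1 exon. Of the 67 in the list 8 held any peak, and 6 of these 8 held a member, where 22.4% of all genes with a peak did. A coding-sequence peak in a gene of 1 exon can only have 1 block. The higher share therefore follows from how members were chosen and is no result. Of these members 3 were called positive and 1 negative, and their median fold was 2.45 where that of all members was 6.04. Hist1h2bm had a difference of 1.03 beside 8.01, 5.81 and 6.66 FPKM in cisplatin and 48.9, 49.2 and 51.0 FPKM in control libraries. Hist1h2bn had -1.28 beside 46.0, 41.0 and 47.5 FPKM in cisplatin and 190.3, 182 and 175 FPKM in control. Both fell steeply in input, while Hist2h4 was higher, at 8.78 ± 0.457 FPKM in cisplatin and 3.57 ± 0.716 FPKM in control libraries. By the test 4 of the 6 hosts were lower in cisplatin and 2 higher. Over the whole list 43 of 58 tested genes were lower and 4 higher. Histone genes have near-identical copies, between which reads can be split, so their values are uncertain. Among 35 other genes with their coding sequence in 1 exon, 5 held 6 members, with calls in Jun and Tob1 (2.10).

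The remaining lists held few members. All 7 members in chaperone genes were called, 4 positive and 3 negative, with 5.08 in the chaperonin subunit gene Cct4, 3.74 in the endoplasmic reticulum chaperone gene Hspa5 and -1.17 in Hsp90ab1. Hspa5 RNA was 300.1, 288 and 329 FPKM in cisplatin and 531, 519.7 and 518 FPKM in control libraries. It was the 1 lower host of this list, where 3 of 5 were higher. Over the whole chaperone list 21 of 32 tested genes were higher and 8 lower. Matrix and integrin genes held 6 members with 2 positive calls, in Fn1 (4.31) and Thbs1 (3.03), and all 4 hosts were lower in cisplatin, where over the whole list 10 of 28 tested genes were higher and 11 lower. Genes of cholesterol and fatty acid synthesis held 5 members with 1 call, a positive one, and 4 of 5 hosts were lower, as were 27 of the 33 tested genes of that list. Immune genes held 5 members, with positive calls in Nectin2 (3.58) and Csf1 (0.52) and a negative call in Tapbp (-2.51), which brings class I molecules to the peptide transporter. Nectin2 RNA was 22.8, 20.7 and 23.2 FPKM in cisplatin and 44.5, 44.7 and 43.6 FPKM in control libraries. No list was tested as a set, and some genes stand in more than 1 list.

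**Figure D5:**
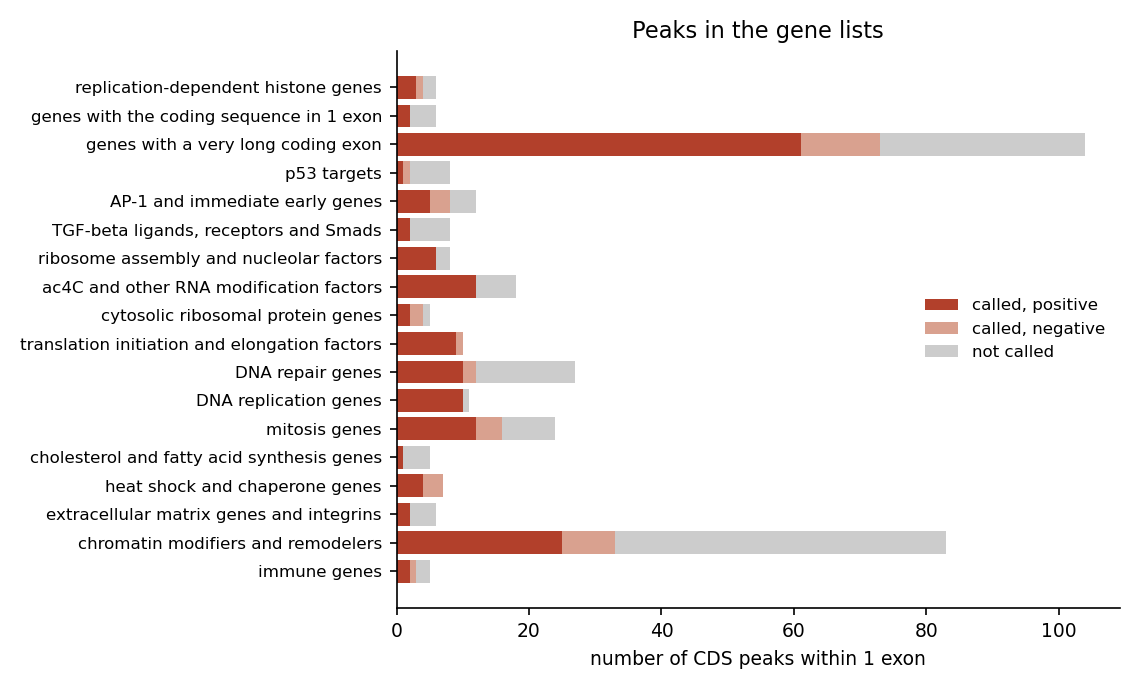
Number of members in each gene list, divided into positive calls, negative calls and no call at the authors' adjusted p of 0.05. Genes with a very long coding exon and chromatin genes held the most, with 104 and 83 members, and all 10 members in translation factors were called.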

How the data were processed

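Input and ac4C pull-down RNA of ID8 cells was sequenced with strand-specific libraries, per the labels' protocols. Tools named in the submitters' processing notes are HISAT2, HOMER, fastp and FastQC, with build mm10; no peak caller is stated there as such. Per the file headers, the authors deposited FPKM per gene for 6 input libraries with a log2 change and p-value, and per peak a fold ratio of IP over input, a log2 difference and log10 p scores. The class, block count and coordinates of peaks are also the authors', per the file headers, and were counted from 1. Genes that reached 1 FPKM in at least 3 libraries were compared, cisplatin over control, with limma 3.58.1 in R 4.3.3 (lmFit, eBayes with trend) on log2(FPKM + 1), with Benjamini-Hochberg adjustment over 11449 genes at 0.05; the steps were tested on simulated data. FPKM gave whole fragments for 14852 of 14852 genes within a tolerance of 0.0001. Replicates 1 to 3 were not paired: deviations of same-numbered libraries correlated at 0.097, -0.116 and 0.043. No library repeated another (chi-square per gene 2.44 to 3.28 within control and 8.32 to 17.19 within cisplatin). Gene spans came from RefSeq, GRCm38.p6, which matched 2755 members (97.9%).

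Members and lists were chosen with earlier results of these data known. Genes named are the hosts of the 5 largest called differences of each sign, the 5 highest folds, the 5 genes with most members, the 3 widest members and up to 3 called per list. For the largest differences, 1 peak per gene with a host mean of at least 1 FPKM in a group was taken, and predicted genes and pseudogenes were left out. Other genes were chosen after their values were seen. Some genes that this rule names are not reported here.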

Additional observations from a re-analysis of the deposited data

How the results depend on the processing

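The count of 1316 called members stayed within 1.5 times under every alternative tried and lay between 1067 and 1316. Counting each interval once and a floor of 100 bases removed no member. The other alternatives were stricter thresholds or subsets of the members, so the count could not rise. The medians of width and position stayed within an interval of the median that takes peaks of 1 gene as independent. The median fold enrichment was 7.05 with 1 peak per gene, the one with the highest fold, against 6.04 over all members. With a fold of at least 2 besides the adjusted p, 266 host genes were called in input RNA (141 higher and 125 lower in cisplatin), against 1463; that is 14.6% of tested hosts, where 23.9% of all tested genes passed. Leaving out 1 library at a time gave 1323 to 1453 called host genes. The replicate block gave 1447. Quantile normalization turned the sign of Srrm2 (-0.02, adjusted p 0.529) and Bub1b (-0.04, adjusted p 0.17), and the cause was not tested. Rescaling to a common sum gave 685 higher and 801 lower host genes, and voom on recovered fragments, chosen after seeing the data, gave 740 and 776, so the order of the 777 higher and 686 lower hosts depends on the scaling. Of 895 repeats of the input change of 69 named genes, 851 kept direction and side of the threshold, 28 lost the call, 14 gained one and 2 turned. Tapbp and Hhex lost their input call without single libraries, and Ythdf3, Fat1, Nucks1 and Ltv1 gained one. Without cisplatin replicate 3 the adjusted p was 0.00383 for Ythdf3 and 0.00392 for Fat1, without cisplatin replicate 2 it was 0.00677 for Nucks1 and 0.0487 for Ltv1. Fragments carry no molecular identifiers here, and peaks have no value per library, so no interval can be given for a peak's difference.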

Other observations

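A few values of fold enrichment recurred among the members. The 8 most common were 7.05 (106 members), 8.23 (87), 9.4 (84), 10.6 (96), 11.8 (74), 12.9 (62), 14.1 (56) and 15.3 (53), each 1.1 to 1.2 above the one before. Together they held 618 members (22.0%). Of these 13.9% had a called difference, against 56.0% of the other members, and their hosts had a median of 4.6 FPKM, against 12.6 FPKM for the others. Log2 differences recurred as well. In 413 members (14.7%) the difference was, within 0.006, the log2 of 1, 2, 3 or 4, and 10 of them were called.

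Neighbouring members of 1 gene could differ widely. In Pkd2, which encodes the calcium channel polycystin-2, the member at 104498736 to 104499006 of chromosome 5 had a log2 difference of 7.05 and was called. The next one, at 104499126 to 104499366, had -0.32 and was not, at folds of 14.8 and 28.2. Over the autosomes and the X chromosome the share of members with a call ran from 28.2% on chromosome 14 to 59.8% on chromosome 19, where Ahnak lies. On the mitochondrial genome it was 71.4%, and over all members 46.7%. The part of the host level in these shares was not tested. These genes and chromosomes were chosen after their values were seen.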
